A study of Mus musculus with 19 samples.

Results

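Costimulatory receptors of the TNF receptor superfamily were examined in mouse CD4 T cells that carry reporters of IL-2 and of Foxp3. The 9 genes were Tnfrsf4 (OX40), Tnfrsf9 (4-1BB), Tnfrsf18 (GITR), Tnfrsf1a (TNFR1), Tnfrsf1b (TNFR2), Tnfrsf25 (DR3), Tnfrsf14 (HVEM), Cd27 and Fas. They were found as the non-control probes whose gene name in the scanner files equals one of these symbols, which gave 13 probes on 23 spots of each array, out of 55681 probes for 35019 gene names. Receptors of this family bind trimeric ligands on antigen-presenting or activated cells, recruit TRAF adaptors or death-domain adaptors to their cytoplasmic tails, and signal to NF-kappaB, MAP kinases or caspases. OX40, GITR, TNFR2, DR3 and 4-1BB are known on regulatory T cells (Treg), CD27 and HVEM on naive conventional T cells, and TNFR1, DR3 and Fas have a death domain.

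Spleens and lymph nodes of adult C57Bl/6 females were the source of the cells, and all of the mice carried both transgenic reporters (IL-2-GFP and FOXP3mRFP), so that there was no group without them. The 19 arrays comprised 4 of GFP+RFP+ cells (replicates 1, 3, 4 and 5), 5 of GFP-RFP+ cells, 5 of GFP+RFP- cells and 5 of GFP-RFP- cells. RFP+ cells are labelled as regulatory and GFP+ cells as IL-2p in the subtype, although 1 tag names every sample conventional. The labels give no treatment of the cells and do not state that replicates are different animals, so that p-values reflect only how these samples vary, and that variation could be technical. The RNA was amplified by PCR before labelling and hybridized one-colour to arrays of single-stranded probes of 60 bases.

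The RFP+ arrays had lower average brightness, though no difference passed 0.05 after adjustment. The share of probes that the scanner software flagged as well above background was 32.2% ± 4.94 (SD, n = 4) for GFP+RFP+ cells, 29.6% ± 6.78 (n = 5) for GFP-RFP+ cells, 36.9% ± 4.29 (n = 5) for GFP+RFP- cells and 40.6% ± 2.86 (n = 5) for GFP-RFP- cells. The 75th percentile of intensity, taken over the 6612 probes detected on all arrays, was lower by 1.19 log2 units in GFP-RFP+ than in GFP-RFP- cells and by 1.25 in GFP+RFP+ than in GFP+RFP- cells (exact two-sided permutation p = 0.016 each, and 0.064 after adjustment over 8 tests). For the share detected, the exact permutation p was 0.024 (adjusted 0.064) in the first comparison and 0.17 (adjusted 0.27) in the second, where the groups overlapped, at 26.08% to 38.05% in GFP+RFP+ and 30.17% to 41.05% in GFP+RFP- cells. Replicates of a group correlated at r = 0.55 to 0.75 over probes. All 9 T cell identity genes were detected on every GFP-RFP- array and 6 to 9 of them on arrays of the other groups. Foxp3 was detected on all 19 arrays and averaged -6.12 ± 0.84 for GFP+RFP+, -5.35 ± 3.32 for GFP-RFP+, -7.63 ± 0.61 for GFP+RFP- and -7.89 ± 0.5 for GFP-RFP- cells (SD, log2 relative to the array's 75th percentile), with a difference of 2.55 ± 1.1 (standard error) and an adjusted p of 0.19 in limma for GFP-RFP+ against GFP-RFP-. Il2 was detected on 1 of 4, 0 of 5, 2 of 5 and 2 of 5 arrays in the same order and was called in no comparison. Neither reporter gene's own transcript passed the threshold, and the RFP and GFP names below are those of the labels.

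Each array measured a receptor through 1 or 2 probes. The pairs of Tnfrsf9, whose readings differ, and of Cd27, which were detected together on most arrays, are shown because the results on these receptors turn on the probe. The last 30 of 60 bases are given 5′ to 3′ as printed in the files, and capitals mark an uninterrupted run of alternating G and T.
Tnfrsf9 probe A_55_P2029061, mm9 chr4:150319582-150319641, + strand: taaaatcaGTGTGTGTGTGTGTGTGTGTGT
Tnfrsf9 probe A_55_P2082180, mm9 chr4:150319101-150319160, + strand: taacatatttgtctttaccttttttaaatc
Cd27 probe A_51_P229664, mm9 chr6:125183076-125183135, - strand: agctgacaaaactacatgccaggggtggaa
Cd27 probe A_55_P2164428, mm9 chr6:125183200-125183259, - strand: atactcaacaaactgcccttctgagaccaa
The first Tnfrsf9 probe ends in a GT run of 22 bases, and the other lies 481 bases upstream in the same transcript and has none of that run. The Cd27 probes lie 124 bases apart near the end of one transcript and hold no such run. Of the 9 genes, 6 lie on chromosome 4 (Tnfrsf1b, Tnfrsf9, Tnfrsf25, Tnfrsf14, Tnfrsf4 and Tnfrsf18), where the probes of Tnfrsf4 and Tnfrsf18 are 12.3 kb apart. Tnfrsf1a and Cd27 lie 128.8 kb apart on chromosome 6, and Fas lies on chromosome 19. The files assign each of the 13 probes to a RefSeq transcript, and whether a probe lies in coding sequence or in an untranslated region was not determined here.

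Detection differed widely among the receptors. Tnfrsf9 and Cd27 were detected through at least 1 probe on all 19 arrays, Tnfrsf18 and Tnfrsf1a on 16, Tnfrsf4 on 15, Tnfrsf14 on 12, Tnfrsf25 on 8, Tnfrsf1b on 5 and Fas on 1. The number of the 9 genes detected on an array was 4 to 8 (median 6) for GFP+RFP+, 3 to 6 (median 5) for GFP-RFP+, 4 to 8 (median 6) for GFP+RFP- and 5 to 7 (median 6) for GFP-RFP- cells. The groups overlapped in this number. Genes were tested if a probe was well above background on at least 4 arrays. This kept 8 of the 9 receptors and 11 of their 13 probes, leaving out Fas and the second Tnfrsf14 probe, and the 8 are those bright enough to test rather than the whole family.

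No receptor passed the adjusted threshold of 0.05 in any comparison of reporter groups. In GFP-RFP+ relative to GFP-RFP- cells, 0 of 8 receptors were called where 1.7% of the 20620 genes tested were. An unadjusted p under 0.05 was found for 2 of 8 (Tnfrsf14 and Tnfrsf9), beside 4665 of the 20620 genes. In GFP+RFP+ relative to GFP+RFP- cells, 0 of 8 were called against 0.204% of all genes. The same 2 genes were under 0.05 unadjusted, beside 3592 of the 20620 genes. In GFP+RFP- relative to GFP-RFP- cells the count was 0 of 8 against 0.0097% of all genes. Tnfrsf18 alone of the 8 was under 0.05 unadjusted, beside 1059 of the 20620 genes. In GFP+RFP+ relative to GFP-RFP+ cells the count called was 0 of 8 against 0.00485%, and for the interaction of the reporters 0 of 8 against 0.0097%. None of the 8 was under 0.05 unadjusted there, beside 1114 and 1014 of the 20620 genes. With so small a share of all genes called, the absence of calls among 8 receptors is not a result about them.

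The median difference of the 8 receptors was -1.21 log2 units in GFP-RFP+ relative to GFP-RFP- cells, beside -0.29 over all genes, and 0.92 in GFP+RFP+ relative to GFP+RFP- cells, beside 0.22. It was -0.77 beside -0.02 in GFP+RFP- relative to GFP-RFP- cells and 0.72 beside 0.41 in GFP+RFP+ relative to GFP-RFP+ cells. Scaling mattered to these medians. With the percentile taken over all probes, the median of all genes in GFP-RFP+ relative to GFP-RFP- cells moved to 1.02 and that of the receptors to 0.1, and with no scaling between arrays they were -1.48 and -2.4. The split of calls moved as well. Of the called genes, 97 of 351 were higher in GFP-RFP+ cells in the setting used here, 3512 of 4030 with the percentile over all probes, 2843 of 3474 with quantile normalization, 4111 of 4850 with normexp background correction, 2926 of 3600 in the authors' series table and 4 of 2021 without scaling. For GFP+RFP+ relative to GFP+RFP- cells, 18 of 42 called genes were higher in the setting used here and 4742 of 5023 with normexp.

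**Figure D1:**
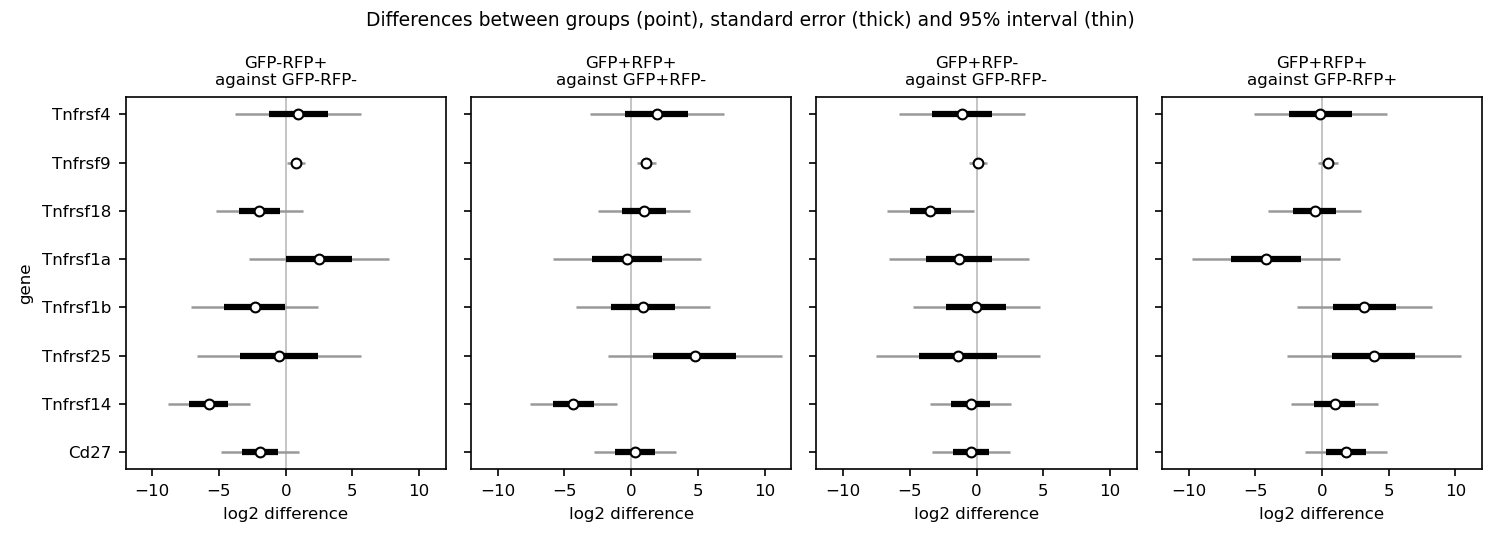
Log2 difference of each of the 8 tested receptors in the 4 comparisons of groups (points, x axis in log2 units), with the standard error (thick line) and the 95% interval (thin line). Intervals lie on 1 side of 0 for Tnfrsf14 and Tnfrsf9 in the 2 comparisons of RFP+ with RFP- cells and for Tnfrsf18 in GFP+RFP- relative to GFP-RFP- cells, while no difference passed an adjusted p of 0.05.

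HVEM had the largest difference of the 8 receptors between GFP-RFP+ and GFP-RFP- cells, short of the threshold. HVEM (Tnfrsf14) receives LIGHT and lymphotoxin alpha as TNF-family ligands and engages BTLA and CD160, both of the immunoglobulin superfamily. Its probe A_55_P2046661 (mm9 chr4:154300709-154300768, - strand) was well above background on 1 GFP+RFP+ array of 4, 1 GFP-RFP+ array of 5, 5 GFP+RFP- arrays of 5 and 4 GFP-RFP- arrays of 5. The intensities (arbitrary scanner units) in GFP+RFP+ cells were 9, 16, 3 and 104, against 3278, 265, 296, 274 and 2941 in GFP+RFP- cells. In GFP-RFP+ cells they were 15, 4, 42, 4 and 8, against 5673, 3042, 5057, 11 and 2580 in GFP-RFP- cells. Before scaling, the highest GFP+RFP+ array lay below every GFP+RFP- array, and GFP-RFP- replicate 4 lay within the range of the GFP-RFP+ arrays while the other GFP-RFP- arrays lay far above it.

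After scaling, Tnfrsf14 averaged -9.4 ± 1.2 in GFP-RFP+ cells and -3.63 ± 3.77 in GFP-RFP- cells (SD, n = 5 each), a difference of -5.77 ± 1.45 (standard error, 95% interval -8.84 to -2.7) with an adjusted p of 0.052 in limma. In GFP+RFP+ cells it averaged -8.43 ± 1.96 (n = 4) and in GFP+RFP- cells -4.09 ± 1.78 (n = 5), a difference of -4.35 ± 1.54 (-7.6 to -1.09) with an adjusted p of 0.17. The scaled groups overlapped in both comparisons, in the second by 1 pair of arrays, at -5.84 in GFP+RFP+ replicate 5 and -5.85 in GFP+RFP- replicate 2. The interaction of the reporters was 1.42 ± 2.12 (adjusted p = 1), and the IL-2 reporter differences were 0.97 ± 1.54 in GFP+RFP+ relative to GFP-RFP+ cells and -0.45 ± 1.45 in GFP+RFP- relative to GFP-RFP- cells, so a dependence on the IL-2 reporter was not detectable with these arrays.

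The side of the threshold on which Tnfrsf14 fell depended on the processing. The difference in GFP-RFP+ relative to GFP-RFP- cells was below 0 in all 14 other settings (-8.23 to -3.2, adjusted p = 0.016 to 0.66) and passed the threshold in 7 of them. Without GFP-RFP- replicate 4 the difference was -7.44 with an adjusted p of 0.0023, and it also passed without GFP-RFP+ replicate 3 (0.035) and without GFP+RFP+ replicate 5 (0.046). With each array's detected percentage as a covariate it was -4.56 with an adjusted p of 0.56, and without the 3 arrays that had under 30% of probes detected it was -5.6 with an adjusted p of 0.11. The lower average brightness of RFP+ arrays moved with this difference, and its part was not tested beyond these values. The second Tnfrsf14 probe, 4390 bases away on the genome, was above background on only 2 arrays (GFP+RFP+ replicate 3 at 3390 and GFP+RFP- replicate 1 at 1966) and at 3 to 13 elsewhere. The probes were detected together on 1 array, so the second does not repeat the pattern of the first.

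The partners of HVEM were measured by 1 probe each. Btla, the inhibitory receptor that binds HVEM, was detected on 2 GFP+RFP+ arrays of 4, 1 GFP-RFP+ array of 5, 3 GFP+RFP- arrays of 5 and 4 GFP-RFP- arrays of 5. Its difference in GFP-RFP+ relative to GFP-RFP- cells was -4.82 ± 2.06 with an adjusted p of 0.18 (limma), and the groups overlapped. Cd160, a glycolipid-anchored ligand of HVEM on cytotoxic cells, was detected on 0 GFP+RFP+ arrays of 4, 3 GFP-RFP+ arrays of 5, 4 GFP+RFP- arrays of 5 and 5 GFP-RFP- arrays of 5. Where a probe was not well above background on any array of a group, a fold is given as a bound against the faintest signal that counted as detected on those arrays. Such a bound compares group means in the setting used here and allows neither for the spread of arrays nor for other settings. By the group means Cd160 was at least 5.82-fold lower in GFP+RFP+ than in GFP+RFP- cells (adjusted p = 0.18 in limma, and 0.049 without GFP+RFP- replicate 4). Over 14 other settings its log2 difference ran from -5.25 to -1.02.

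**Figure D2:**
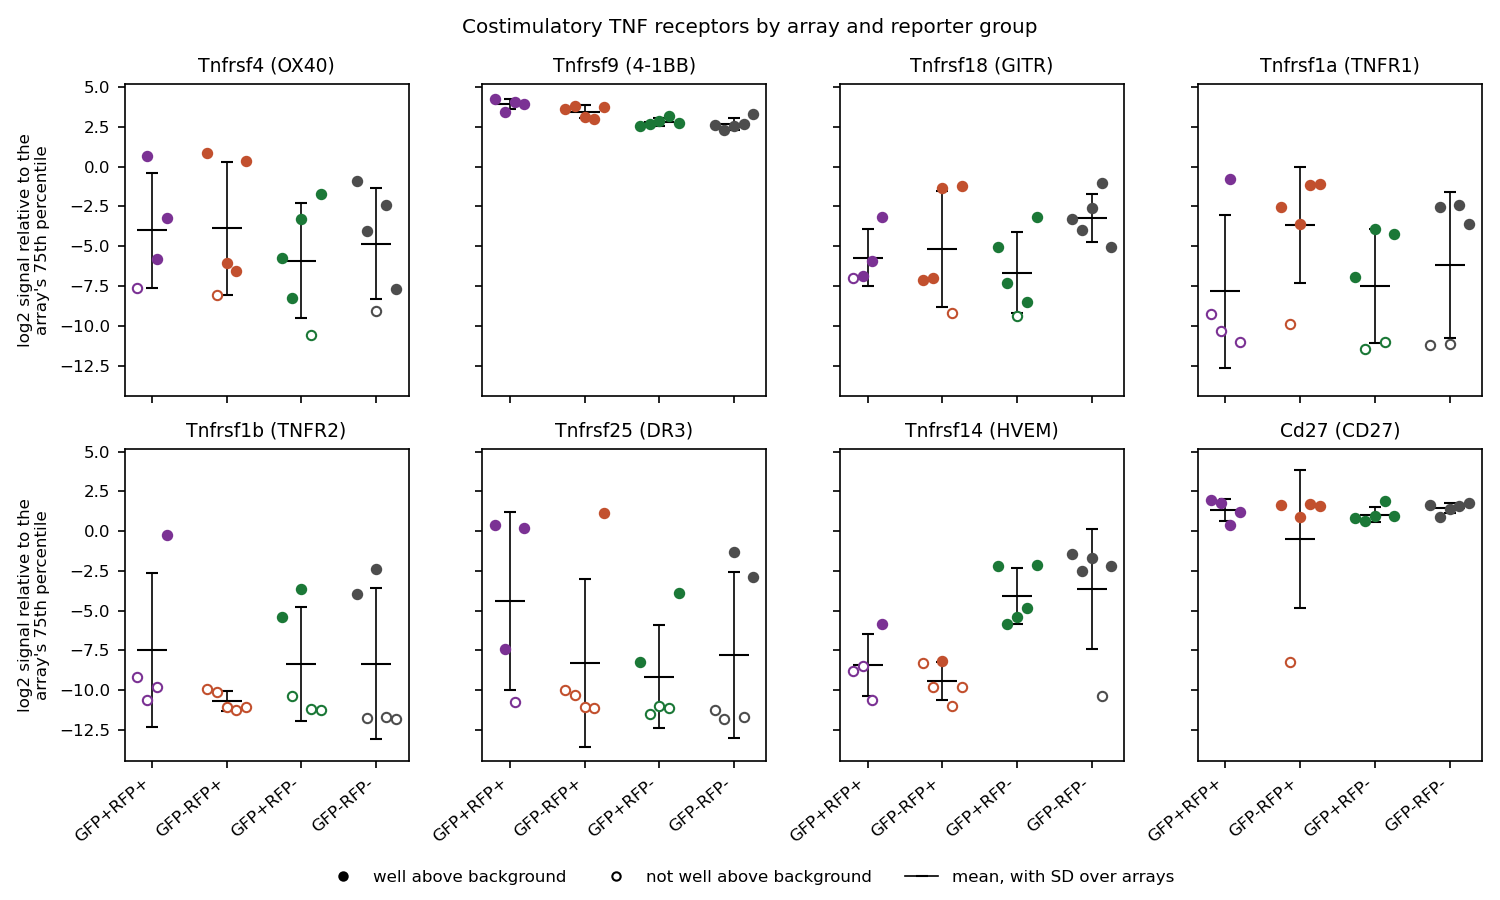
Log2 signal of the 8 tested receptors relative to the 75th percentile of each array (y axis), by reporter group (x axis, 4 or 5 arrays a group). Filled points are well above background, open points are not, and black bars give the mean and SD; Tnfrsf14 is mostly open in the RFP+ groups and mostly filled in the RFP- groups, whereas Tnfrsf1a, Tnfrsf1b and Tnfrsf25 hold both kinds of point in nearly every group.

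The probes of 4-1BB gave different readings. 4-1BB (Tnfrsf9) is an inducible costimulator of activated T cells. The probe that ends in the GT run was bright on every array, with intensities of 78819, 64602, 85243 and 92331 in GFP+RFP+ cells and 56572, 53833, 100648, 61597 and 99225 in GFP-RFP+ cells. They were 86608, 96846, 92271, 69921 and 88754 in GFP+RFP- cells and 94831, 86176, 95875, 88803 and 114773 in GFP-RFP- cells. All 4 groups overlapped before scaling. After scaling, the probe was higher by 1.13 ± 0.34 log2 units in GFP+RFP+ than in GFP+RFP- cells (adjusted p = 0.13 in limma) and by 0.77 ± 0.32 in GFP-RFP+ than in GFP-RFP- cells (adjusted p = 0.18). Tnfrsf9 was then the 1 receptor whose groups did not overlap in GFP+RFP+ relative to GFP+RFP- cells, where 7.81% of all genes did not. No receptor had groups that did not overlap in the other comparisons, against 6.67% of genes in GFP-RFP+ against GFP-RFP-, 2.4% in GFP+RFP- against GFP-RFP- and 1.02% in GFP+RFP+ relative to GFP-RFP+ cells. Without scaling the differences were -0.12 in GFP+RFP+ relative to GFP+RFP- cells and -0.42 in GFP-RFP+ relative to GFP-RFP- cells, so their direction turned.

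Probes with such runs behaved alike whatever gene they were named for. Of all probes, 71 hold an unbroken run of 8 GT units, read on the probe strand only, and all 71 were above background on all 19 arrays, against 11.9% of all probes. The 32 probes with 8 AC units were likewise all detected on every array. Across the 71 GT-run probes the median difference was 1.19 (1.04 to 1.44) in GFP+RFP+ relative to GFP+RFP- cells, where the Tnfrsf9 probe had 1.13, and 1.03 (0.63 to 1.33) in GFP-RFP+ relative to GFP-RFP- cells, where it had 0.77. These differences have about the size of the shifts in the 75th percentile that scaling removes (-1.25 and -1.19). Of 11600 genes with a usual symbol, those whose levels correlated best with Tnfrsf9 over the 19 arrays were Sema6d, Il15ra and Psme3, each at r = 0.99, and their probes hold GT or AC runs of 20, 16 and 12 bases. The correlation describes probes on the same arrays and says nothing of a shared transcript level.

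The other Tnfrsf9 probe was detected on 1 GFP+RFP+ array of 4, 2 GFP-RFP+ arrays of 5, 2 GFP+RFP- arrays of 5 and 0 GFP-RFP- arrays of 5. The detected arrays were GFP+RFP+ replicate 4 at 1004, GFP-RFP+ replicates 3 and 5 at 396 and 3848, and GFP+RFP- replicates 1 and 4 at 795 and 66, and every other array lay between 3 and 15. Read by this probe, Tnfrsf9 was at least 7.11-fold higher in GFP-RFP+ than in GFP-RFP- cells, but the fit over probes gave an adjusted p of 0.2, and 2 arrays carried the difference. It was at least 2.1-fold higher in GFP+RFP- than in GFP-RFP- cells, with an adjusted p of 1. The GT-run probe gives no reading here that is particular to 4-1BB.

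**Figure D3:**
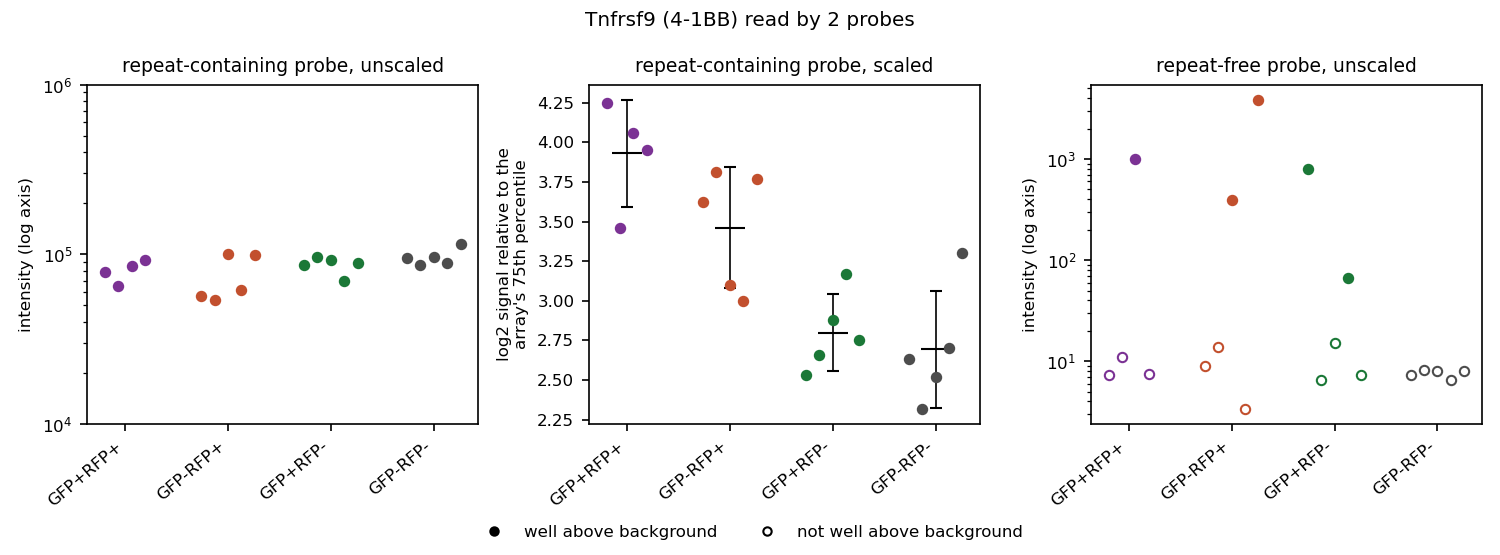
Tnfrsf9 by array and reporter group: intensity of the probe that ends in the GT run (left, log axis), the same probe as log2 signal relative to the array's 75th percentile with mean and SD (middle), and intensity of the probe without the run (right, log axis). The left panel shows overlapping groups between 53833 and 114773. In the middle panel the means of the RFP+ groups lie above those of the RFP- groups, and the GFP-RFP+ arrays overlap both RFP- groups. The right panel shows 5 detected arrays (filled) of 19.

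OX40 and GITR, costimulators that are abundant on Treg and induced on conventional cells by activation, did not differ beyond their spread by the Foxp3 reporter. Tnfrsf4 had intensities of 21, 9297, 91 and 647 in GFP+RFP+ cells and 8211, 15, 175, 83 and 9383 in GFP-RFP+ cells. They were 276, 50, 1297, 5 and 4072 in GFP+RFP- cells and 8132, 1034, 31, 2554 and 56 in GFP-RFP- cells. Each group held both nearly dark and bright arrays, and all groups overlapped. The difference was 0.95 ± 2.24 in GFP-RFP+ relative to GFP-RFP- cells (95% interval -3.77 to 5.68, adjusted p = 0.84 in limma) and 1.92 ± 2.37 in GFP+RFP+ relative to GFP+RFP- cells (-3.09 to 6.93, adjusted p = 0.71), so these arrays left room for large differences in either direction.

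Tnfrsf18 had intensities of 33, 51, 84 and 677 in GFP+RFP+ cells and 32, 30, 4566, 13 and 3139 in GFP-RFP+ cells. They were 454, 97, 19, 21 and 1477 in GFP+RFP- cells and 1574, 1097, 2694, 6620 and 347 in GFP-RFP- cells. The GFP-RFP- arrays were the most even and the only group with Tnfrsf18 detected on all arrays. Tnfrsf18 was lower by 3.47 ± 1.55 log2 units in GFP+RFP- than in GFP-RFP- cells, at a log2 level of -6.68 ± 2.55 in GFP+RFP- against -3.2 ± 1.5 in GFP-RFP- cells (SD, n = 5 each), with a p of 0.038 and an adjusted p of 0.97 in limma. In GFP-RFP+ relative to GFP-RFP- cells the difference was -1.98 ± 1.55 (-5.24 to 1.29, adjusted p = 0.47), and in GFP+RFP+ relative to GFP+RFP- cells 0.95 ± 1.64 (-2.51 to 4.41, adjusted p = 0.8).

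Although their genes are neighbours, Tnfrsf4 and Tnfrsf18 correlated at r = 0.3 over the 19 arrays. The genes most like Tnfrsf4 were Tstd2 (r = 0.73), Nup88 (0.69) and Lilrb4a (0.68), and those most like Tnfrsf18 were Phldb3 (0.87), Atm (0.86) and Sec24c (0.84), over 11600 genes and 19 arrays that share their depth and their all-or-none detection. Among all pairs of the 8 receptors r lay between -0.61 (Tnfrsf9 and Tnfrsf14) and 0.42 (Tnfrsf9 and Tnfrsf25), and both of these extremes involve the GT-run probe.

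CD27, the receptor of CD70 and a costimulator of naive T cells, was detected in every group by both of its probes. Probe A_51_P229664 had 15902, 20069, 6689 and 13643 units in GFP+RFP+ cells and 14439, 13, 21280, 25332 and 21929 in GFP-RFP+ cells. It had 26197, 23555, 23794, 28526 and 25384 units in GFP+RFP- cells and 47245, 32283, 44243, 40064 and 39910 in GFP-RFP- cells. Unscaled, GFP-RFP- arrays were above all others, and scaled to the 75th percentile the groups overlapped.

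The scaled Cd27 level averaged 1.33 ± 0.7 for GFP+RFP+, -0.48 ± 4.34 for GFP-RFP+, 1.04 ± 0.49 for GFP+RFP- and 1.45 ± 0.33 for GFP-RFP- cells (SD). The difference of -1.93 ± 1.38 in GFP-RFP+ relative to GFP-RFP- cells by this first probe (adjusted p = 0.42 in limma) rested on 1 array. Without GFP-RFP+ replicate 2, at 13 units, it was 0.01. On that same array the second Cd27 probe, 124 bases away, read 850 units, and on GFP-RFP+ replicate 5 the second probe read 15 units where the first read 21929. By the second probe the difference in GFP-RFP+ relative to GFP-RFP- cells was -2.76 ± 1.45 (adjusted p over probes 0.28 in limma). By the mean of the gene's probes it was -2.34 ± 1.04 (adjusted p = 0.19). Both probes were detected on 17 arrays, only the first on 1 and only the second on 1. On 2 arrays, then, 1 Cd27 probe was without signal while the other read the same transcript. On GFP+RFP+ replicate 3 both were detected, but the first read 20069 units and the second 483.

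**Figure D4:**
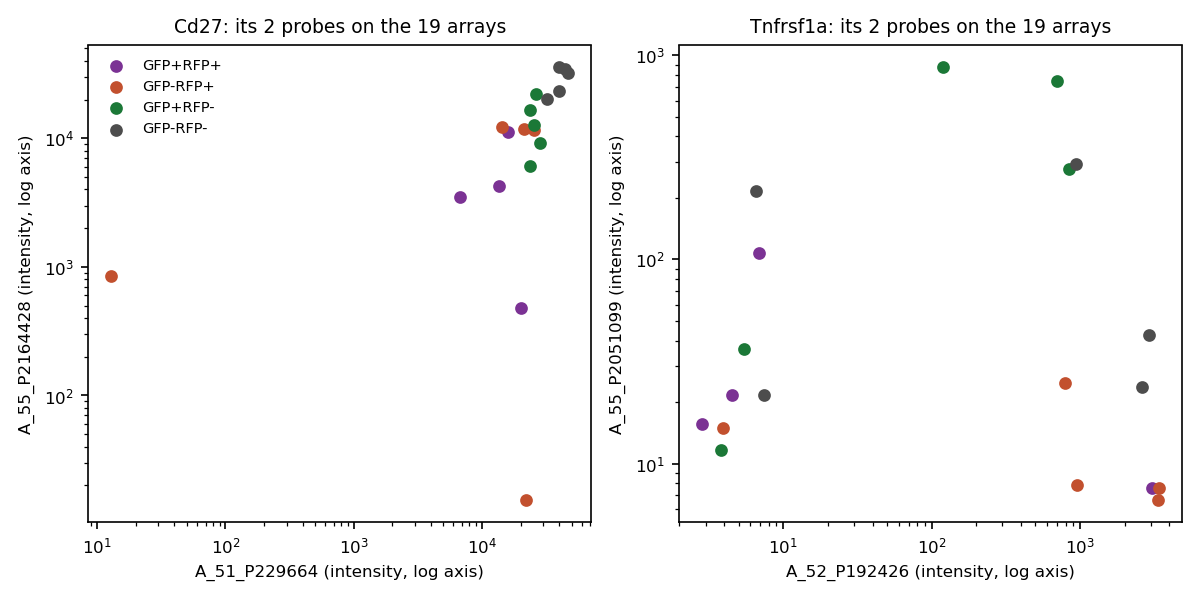
Intensity of the 2 probes of Cd27 (left) and of Tnfrsf1a (right) on each of the 19 arrays, both axes logarithmic, coloured by reporter group. The Cd27 probes were both detected except on 2 GFP-RFP+ arrays, with a wide gap also on GFP+RFP+ replicate 3 (20069 and 483 units), whereas only 7 arrays had both Tnfrsf1a probes detected.

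TNFR1, the broadly expressed death-domain receptor of TNF, was read by a probe printed on 10 spots and by another on 1 spot, 454 bases apart. The 10-spot probe was detected on 1 GFP+RFP+ array of 4, 4 GFP-RFP+ arrays of 5, 3 GFP+RFP- arrays of 5 and 3 GFP-RFP- arrays of 5, and the single-spot probe on 3 of 4, 1 of 5, 4 of 5 and 4 of 5. Both were detected on 7 arrays, only the first on 4, only the second on 5 and neither on 3. Their differences in GFP-RFP+ relative to GFP-RFP- cells had opposite signs, 2.51 ± 2.48 for the first and -1.45 ± 1.19 for the second (adjusted p over probes 0.58 and 0.5 in limma). No direction can be given for Tnfrsf1a. Averaging over 10 spots did not remove the all-or-none pattern, since the first probe read 3 to 7 units on 8 arrays and 120 to 3407 on the other 11.

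TNFR2, the TNF receptor that is preferentially found on Treg, and DR3, the receptor of TL1A that expands Treg, were each detected on a minority of arrays. Tnfrsf1b read 5004 units on 1 GFP+RFP+ array (replicate 5), 351 and 1011 on GFP+RFP- replicates 1 and 3, and 989 and 3143 on GFP-RFP- replicates 1 and 3, and it read 3 to 11 units on the other arrays, among them all 5 of GFP-RFP+ cells. It was at least 1.56-fold lower in GFP-RFP+ than in GFP-RFP- cells (adjusted p = 0.57 in limma) and at least 2.83-fold higher in GFP+RFP+ than in GFP-RFP+ cells (adjusted p = 0.93), both resting on 1 or 2 bright arrays. Tnfrsf25 was detected on 3 GFP+RFP+ arrays of 4 (5502, 34 and 6888 units), 1 GFP-RFP+ array of 5 (15910), 2 GFP+RFP- arrays of 5 (50 and 906) and 2 GFP-RFP- arrays of 5 (6710 and 1600). Its difference in GFP+RFP+ relative to GFP+RFP- cells, 4.76 ± 3.09, had a 95% interval of -1.75 to 11.28 and an adjusted p of 0.43. Neither gene differed between groups beyond the spread of its arrays.

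Fas, the death receptor that removes activated T cells, was not tested because 1 array passed background. That array was GFP+RFP- replicate 5, at 39 units, and the other 18 lay between 3 and 8. Fas was therefore not detected in GFP+RFP+, GFP-RFP+ or GFP-RFP- cells at this brightness, and no fold is given because the GFP+RFP- mean did not exceed the detection floor. Among the ligands, Fasl was detected on 4 GFP+RFP+ arrays of 4, 5 GFP-RFP+ arrays of 5, 5 GFP+RFP- arrays of 5 and 3 GFP-RFP- arrays of 5.

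Among the other genes of the pathway, 1 was called, in GFP-RFP+ relative to GFP-RFP- cells, where 1.7% of all genes tested were. A single call beside that share is not a result about the pathway. Siva1, a proapoptotic protein that binds the cytoplasmic tails of CD27 and GITR, fell in GFP-RFP+ cells. Its probe A_55_P2065360 (mm9 chr12:113885242-113886093, + strand, an interval longer than the probe itself) read 8, 3, 49, 5 and 6 units in GFP-RFP+ cells, against 3803, 10481, 5986, 499 and 9978 in GFP-RFP- cells. All GFP-RFP+ arrays lay below all GFP-RFP- arrays, and 6.67% of all genes had groups that did not overlap after scaling. The log2 levels were -9.62 ± 1.09 for GFP-RFP+ and -1.84 ± 1.78 for GFP-RFP- cells (SD, n = 5 each), a difference of -7.78 ± 1.23 with an adjusted p of 0.0092 in limma.

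In GFP+RFP- cells Siva1 read 71, 11429, 83, 42 and 72 units, and its difference from GFP-RFP- cells was -4.25 ± 1.23 (adjusted p = 0.61, and 0.017 at -5.66 without GFP+RFP- replicate 2, which was the bright array). In GFP+RFP+ cells it read 25, 7, 23 and 10 units, and the difference from GFP+RFP- cells was -2.45 ± 1.31 (adjusted p = 0.34). The interaction, 5.33 ± 1.8, had a p of 0.0088 and an adjusted p of 1, so a dependence on the IL-2 reporter was not shown. GFP-RFP- cells were thus the 1 group in which Siva1 was bright on every array. The call in GFP-RFP+ relative to GFP-RFP- cells held without any single array (-8.51 to -7.37) and in 9 of 14 other settings. It was lost with each array's detected percentage as a covariate (-6.91, adjusted p = 0.28), without the 3 arrays with under 30% detected (-7.61, 0.067) and within single slides (-6.8, -7.47 and -10.17). A second Siva1 probe, A_55_P2056186, was detected on 3 GFP+RFP+ arrays of 4, 3 GFP-RFP+ arrays of 5, 2 GFP+RFP- arrays of 5 and 5 GFP-RFP- arrays of 5, at 9 to 46 units in the first 3 of these groups and 16 to 1204 in GFP-RFP- cells.

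The adaptors and proximal signalling genes link the receptors to NF-kappaB and to caspases. Siva1 was the 1 called of 17, in GFP-RFP+ relative to GFP-RFP- cells, where 1.7% of all genes were. The list had medians below 0 in both comparisons by the Foxp3 reporter. Of 17 genes, all tested, 13 were below 0 in GFP-RFP+ relative to GFP-RFP- cells with a median of -2.04, where 57.1% of all genes were below 0 with a median of -0.29. In GFP+RFP+ relative to GFP+RFP- cells 14 were below 0 with a median of -1.7, where 44.1% of all genes were and the median was 0.22. The number of the 17 detected on an array was 9 to 12 (median 9.5) for GFP+RFP+ and 5 to 15 (median 11) for GFP-RFP+ cells. It was 10 to 16 (median 13) for GFP+RFP- and 14 to 16 (median 15) for GFP-RFP- cells. The mean share of all probes detected was also lower in the RFP+ groups. Of these 2, GFP+RFP+ had the higher share and the lower median number. The part of that share in the median differences was not tested.

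Cflar encodes cFLIP, the inhibitor of caspase-8 activation. It had the smallest p of the list in the comparison of the GFP+ groups, at 16, 42, 55 and 22 units in GFP+RFP+ cells against 1297, 7892, 42, 11880 and 7027 in GFP+RFP- cells, a difference of -4.85 ± 1.7 with an adjusted p of 0.17. Traf1, an adaptor of TNFR2, 4-1BB and other receptors that is itself induced by NF-kappaB, had 4162, 23931, 6677 and 27789 units in GFP+RFP+ cells, against 5, 3, 8734, 10317 and 2749 in GFP-RFP+ cells. The difference of 5.46 ± 1.84 (adjusted p = 0.79) rested on 2 GFP-RFP+ arrays without a Traf1 signal.

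**Figure D5:**
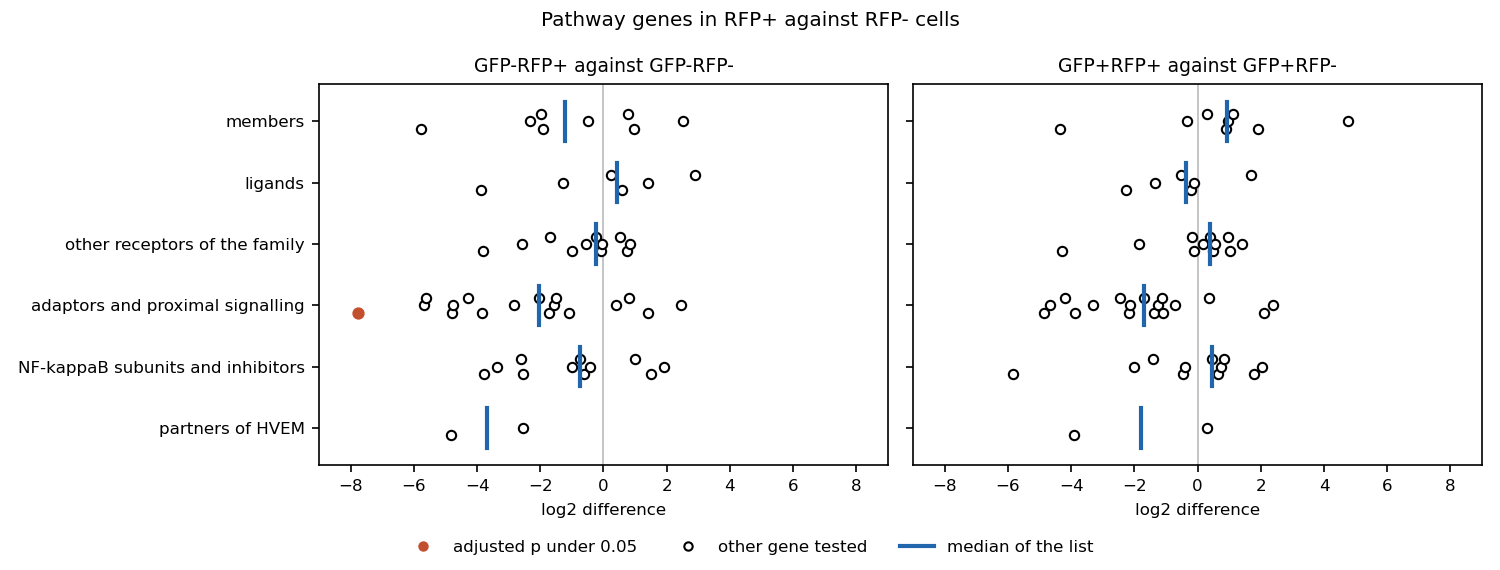
Log2 differences of the tested genes of each list (points) in GFP-RFP+ relative to GFP-RFP- cells (left) and GFP+RFP+ relative to GFP+RFP- cells (right), with the median of each list as a blue bar; the members are the costimulatory receptors. The filled point is Siva1 at -7.78, and the adaptor list has medians of -2.04 and -1.7.

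Of the 10 ligands 6 were tested and 0 were called in any comparison. Tnfsf4, Tnfsf9 and Tnfsf18 are the ligands of OX40, 4-1BB and GITR and are mainly made by antigen-presenting cells. None was detected on any array of the GFP+RFP+, GFP-RFP+ and GFP+RFP- groups. In GFP-RFP- cells, too, Tnfsf4 and Tnfsf18 were detected on no array, and only Tnfsf9 was detected. Ltb, the membrane anchor of lymphotoxin, was detected on all 19 arrays and differed by -1.13 ± 0.7 in GFP+RFP+ relative to GFP-RFP+ cells (adjusted p = 0.93 in limma). Tnf was detected on 1 of 4, 1 of 5, 2 of 5 and 4 of 5 arrays of GFP+RFP+, GFP-RFP+, GFP+RFP- and GFP-RFP- cells, with a difference of -4.33 ± 2.85 in GFP+RFP- relative to GFP-RFP- cells (adjusted p = 1). Tnfsf15, which encodes TL1A, was faint throughout (-1.28 ± 0.77 in GFP-RFP+ relative to GFP-RFP- cells, adjusted p = 0.33), and Fasl had -1.36 ± 1.5 in GFP+RFP+ relative to GFP+RFP- cells (adjusted p = 0.67).

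Of 19 other receptors of the family 11 were tested and 0 were called in any comparison, with medians of -0.25 in GFP-RFP+ against GFP-RFP- and 0.38 in GFP+RFP+ relative to GFP+RFP- cells, close to those of all genes. The smallest p belonged to Tnfrsf26 in GFP-RFP+ relative to GFP-RFP- cells (-3.81 ± 2.46, adjusted p = 0.37 in limma) and in GFP+RFP- relative to GFP-RFP- cells (-5.67 ± 2.46, 0.97). In GFP+RFP+ relative to GFP+RFP- cells it belonged to Tnfrsf13c, the BAFF receptor of B cells (-4.29 ± 2.39, 0.36), and in GFP+RFP+ relative to GFP-RFP+ cells to Tnfrsf11a, which encodes RANK (1.29 ± 0.69, 0.92). Tnfrsf26 was detected on 5 GFP-RFP- arrays of 5 and on 2 arrays of each other group.

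All 11 NF-kappaB subunits and inhibitors were tested and 0 were called in any comparison. Nfkbia, the NF-kappaB-induced inhibitor IkB-alpha, was bright on all arrays and was higher by 1.01 ± 0.45 in GFP-RFP+ than in GFP-RFP- cells (2.51 ± 0.47 in GFP-RFP+ against 1.51 ± 0.2 in GFP-RFP-, SD, n = 5 each) with an adjusted p of 0.2 in limma. The groups did not overlap after scaling, which held for 6.67% of all genes in this comparison. Over 15 other settings the Nfkbia difference ran from -0.18 to 2.31, turning sign without scaling between arrays. Ikbkb, the catalytic IkB kinase, had -5.84 ± 2.65 in GFP+RFP+ relative to GFP+RFP- cells (adjusted p = 0.27). Rel was detected on 1 GFP+RFP- array of 5 and 0 GFP-RFP- arrays of 5. By the group means it was at least 1.24-fold higher in GFP+RFP- than in GFP-RFP- cells (adjusted p = 0.97). Nfkb1 had 2.47 ± 1.73 in GFP+RFP+ relative to GFP-RFP+ cells (adjusted p = 0.93).

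Markers of other cells were read on the same arrays. Cd79b, part of the B cell receptor, fell in GFP-RFP+ relative to GFP-RFP- cells (-6.34 ± 1.51, adjusted p = 0.043 in limma). Its difference in GFP+RFP+ relative to GFP+RFP- cells, where Tnfrsf14 had -4.35, was -6.03 ± 1.6 (adjusted p = 0.1). Of the 6 B cell genes tested, 5 were below 0 in GFP-RFP+ relative to GFP-RFP- cells. Pax5, named after its value was seen, was above 0 (0.71 ± 0.51). In GFP+RFP+ relative to GFP+RFP- cells 4 were below 0, while Pax5 (0.57 ± 0.54) and Cd22 (0.32 ± 0.81) were above. Cd79b was the only 1 of the 6 called, in a comparison where 1.7% of all genes were. The Cd79b call passed in 8 of 14 other settings (adjusted p = 0.017 to 0.58) and in 7 of 19 fits that left out 1 array (0.0015 to 0.11), being lost without replicate 1 or 4 of the GFP+RFP+ arrays, 1, 2 or 5 of the GFP-RFP+ arrays, 1 or 5 of the GFP+RFP- arrays, and any of the GFP-RFP- arrays. Of the 8 B cell genes, 3 to 5 were detected per GFP+RFP+ array and likewise per GFP-RFP+ array, 4 to 6 per GFP+RFP- array and 4 to 7 per GFP-RFP- array. The summed level of the 6 tested B cell genes ranged from -2.59 to -0.04, -4.2 to 0.29, -2.43 to 1.14 and -1.52 to 0.42 in the same order (log2, relative to the 75th percentile), with Ms4a1 detected on no array of the first 3 groups and Blk on none of the GFP+RFP+, GFP-RFP+ and GFP-RFP- groups. HVEM and BTLA are known on B cells too, and the part of B cell RNA in the Tnfrsf14 and Btla readings was not tested. In bulk RNA of this kind, fewer cells of a type and less RNA per cell cannot be told apart.

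Of 6 Treg genes tested, 5 were above 0 in GFP-RFP+ relative to GFP-RFP- cells. Gpr83 was the 1 called, where 1.7% of all genes were. By the group means it was at least 27.9-fold higher (adjusted p = 0.033 in limma). Ctla4, named after its value was seen, had -3.64 ± 1.98 (adjusted p = 0.28). Gpr83 was detected on no GFP+RFP+ array. By the group means it was at least 19.3-fold lower there than in GFP-RFP+ cells (adjusted p = 0.61). In GFP+RFP+ relative to GFP+RFP- cells 3 of the 6 Treg genes were below 0, with 0 called. The Gpr83 call passed in 8 of 14 other settings (4.23 to 9.43 log2 units, adjusted p = 0.012 to 0.6). It passed in 13 of 19 fits that left out 1 array (0.013 to 0.079), being lost without any one GFP-RFP- array or GFP-RFP+ replicate 2. Myeloid genes were detected at 4 to 5, 2 to 6, 5 to 6 and 4 to 6 of 8, NK and CD8 genes at 1 to 3, 1 to 4, 2 to 6 and 2 to 4 of 7, and erythroid and platelet genes at 2 to 4, 1 to 3, 2 to 4 and 2 to 4 of 7, in GFP+RFP+, GFP-RFP+, GFP+RFP- and GFP-RFP- cells, with none called.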

How the data were processed

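Messenger RNA was measured on 19 one-colour arrays in 4 reporter groups taken from the sample titles. Agilent Feature Extraction 10.7.3.1 produced the deposited intensity values, per the file headers and the submitters' processing notes, with background subtraction and removal of spatial trends within each array and no scaling between arrays. The authors' deposited matrix holds log2 values on a common scale (column medians 3.21 to 3.23, r = 0.949 to 1 with the log2 scanner signal), and the sources used here do not give its normalization. It served as an alternative. Array number limits the precision, and no read depth applies.

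Flagged spots (3296 over all arrays, with no receptor probe losing all its spots on any array) were left out, repeated spots averaged on the log2 scale, and a probe counted as detected where no more of its spots failed than passed the flag for well above background. Since a minority of probes was detected on each array, signals were scaled to the array's 75th percentile over the 6612 probes detected on all arrays. Probes detected on at least 4 arrays were kept (28101), and the probe with the highest mean stood for a gene (20620 genes). Names came from RefSeq accessions for 27235 probes and from the files for 28446, and coordinates are those of the files (mm9). limma 3.58.1 in R 4.3.3 (with data.table, version 1.17.8) fitted all 4 groups jointly, with Benjamini-Hochberg adjustment over all genes and a threshold of 0.05. The fit was tested on simulated data.

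The members, gene lists and tests were chosen with earlier results of these data known. Named genes are all members, Foxp3, Il2, called genes of each pathway list and the gene with the smallest p of each pathway list in each comparison, and for 3 receptors the 3 genes with the highest correlation. The second Siva1 probe and the GT-run probes were examined after values were seen. Plots were drawn in Python 3.11.15 (pandas 2.3.3, matplotlib 3.10.9).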

Additional observations from a re-analysis of the deposited data

Results flagged for a closer look

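In 6 of 32 groups of arrays examined (8 receptors in 4 groups) 1 array stood apart from the others by Dixon's criterion. By chance the criterion flags about 5% of groups where values are normally distributed. Detection here was all-or-none for many receptors, so the 6 groups cannot be measured against that share. All levels are log2 signal relative to the 75th percentile of the array. Tnfrsf1a lay at -9.92 on GFP-RFP+ replicate 2, against -3.61 to -1.12 on the other 4 arrays of the group. Cd27 lay at -8.21 on the same array, against 0.86 to 1.72 on the others, and at 1.88 on GFP+RFP- replicate 4, against 0.62 to 0.95. Tnfrsf1b lay at -0.25 on GFP+RFP+ replicate 5, against -10.61 to -9.19. Tnfrsf25 lay at 1.13 on GFP-RFP+ replicate 5, against -11.12 to -9.96. Tnfrsf14 lay at -10.33 on GFP-RFP- replicate 4, against -2.5 to -1.44.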

How the results depend on the processing

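Counts are genes called over all tested, in GFP-RFP+ relative to GFP-RFP- cells unless stated, beside 351 in the setting used here (42 in GFP+RFP+ relative to GFP+RFP-, 2 in GFP+RFP- relative to GFP-RFP-, 1 in GFP+RFP+ relative to GFP-RFP+, 2 for the interaction). With normexp the counts were 4850, 5023, 5 and 7 in these 4 comparisons, with 2 receptors called in the first (Tnfrsf14 and Tnfrsf9) and 1 in the second (Tnfrsf9). Quantile normalization gave 3474, 25 and 2 (first, second and last comparison) and 1 receptor in the first, the percentile over all probes 4030, 10 and 11 with 2 receptors, and the authors' matrix 3600, 22 and 2 with 1 receptor. Without a filter the second count was 108. Over the 5799 genes detected on all arrays the counts were 600, 748, 0 and 2, with 0 for the interaction and 1 receptor (Tnfrsf9) in the second. The mean of a gene's probes gave 6 in the last. Slide as a block gave 1236, 138, 1 and 2 with 1 receptor in the first. The percent detected as a covariate gave 5, 8, 1 and 3. The next 2 settings were chosen after seeing the data: no scaling between arrays gave 2021, 252 and 7 (first 3 comparisons) with 1 receptor in the first, and leaving out the 3 arrays under 30% detected gave 27 in the first, 9 in the last comparison and 4 for the interaction. Within slide 1 the counts were 87 in the first and 0 in the others, and within slides 2 and 3 they were 0 throughout, where a lone array is assumed to vary like the rest. Leaving out 1 array at a time gave 85 to 1166, 2 to 300, 1 to 12 and 1 to 20, 2 to 13 for the interaction, and 0 to 1 receptors in the first comparison, 0 to 0 in the others. The cause of these shifts was not tested.

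Fitting the replicate number as a block gave 198 genes in the first comparison and 8 in the second, with 1 receptor (Tnfrsf14, -5.77, adjusted p = 0.04) in the first. Whether the numbers pair the samples is not stated in the labels, and the setting used here treated the samples as unpaired. Deviations of same-numbered arrays from their group means correlated at -0.074 to 0.094. With detection that was all-or-none for many genes, such values cannot show whether the samples are paired. For the receptors, 57 of 452 differences under other settings changed sign and 11 passed the threshold; on leaving out 1 array, 31 of 608 changed sign and 3 passed. No receptor was called in opposite directions under different settings, but the sign of Tnfrsf9 depended on scaling. In GFP-RFP+ relative to GFP-RFP- cells it was called at 0.81 with normexp and at 2.07 with the percentile over all probes. Without scaling between arrays it was -0.42 and not called.

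Limits are the 4 or 5 arrays a group, RNA amplified by PCR, and receptors near or below background on many arrays. Probes of 1 gene also do not agree in Tnfrsf9, Tnfrsf1a and Tnfrsf14, and on some arrays in Cd27.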
